A study of Mus musculus with 17 samples.

Results

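The receptors and Smad proteins of the transforming growth factor beta (TGF-beta) and bone morphogenetic protein (BMP) pathways were followed through early mouse blood formation by their mRNA. The 10 genes were Tgfbr1, Tgfbr2, Tgfbr3, Bmpr1a, Bmpr2, Smad1, Smad2, Smad3, Smad4 and Smad7, out of 28090 gene names on the array. They were chosen by name, and every non-control probe that the scanner files assign to one of them was read, which gave 19 of 41174 probes. Smad1 and Tgfbr2 are also in the study's lists of predicted targets of HSC miRs and of GMP miRs. Both lists were built on these samples and ask for a pattern inverse to that of the targeting miR.

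The study sorted 6 populations from the bone marrow of female C57Bl/6 mice aged 6 to 8 weeks, and each replicate pooled 10 to 20 mice. The cells had been depleted of mature lineages and enriched for c-kit beforehand. Long-term hematopoietic stem cells (LT-HSC), short-term HSC (ST-HSC) and multipotent progenitors (MPP), together called the HSC subsets, came from one sort. Common myeloid progenitors (CMP), granulocyte-monocyte progenitors (GMP) and megakaryocyte-erythroid progenitors (MEP), called the myeloid populations, came from another, so that the sort and the class of cell cannot be told apart between them. The labels give no engineered allele and no treatment. Total RNA was read on 17 single-color Agilent arrays, with 3 per population except for LT-HSC, which had 2. Of these 2, 1 carried the label of replicates 2 and 3 pooled, and every population also had 1 array whose label gave no number.

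In this pathway a dimeric ligand of the TGF-beta or BMP family brings a type II receptor and a type I receptor together, and the type II receptor activates the type I receptor. The type I receptor then phosphorylates a receptor-regulated Smad, Smad2 or Smad3 for TGF-beta and Smad1 for BMP, which joins the common partner Smad4 and enters the nucleus to act on transcription. Smad7 blocks the activated type I receptor and is itself a target gene, which closes a feedback loop, and TGF-beta is best known in the bone marrow as a signal that holds stem cells out of cycle.

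Levels are given as normalized log2 intensities, on which a difference of 1 is a doubling. A probe was called different when its adjusted p, by limma with Benjamini-Hochberg adjustment over all 41174 probes, was under 0.05. Levels of different probes cannot be set against each other, because each probe binds with its own strength. By the scanner's own mark, 41.4% to 70.1% of an array's spots were well above background, and the unnumbered LT-HSC array had the lowest share. The arrays were scanned on 4 days, and no day held all populations. CMP, GMP and MEP replicates 1 and 2 shared day 1, the unnumbered MPP, CMP and GMP arrays day 2, the unnumbered ST-HSC and MEP arrays day 3, and all other HSC arrays day 4. Each contrast was therefore also fitted with scan day as a term. HSC and myeloid arrays shared a day only on day 2 (MPP with CMP and GMP) and day 3 (ST-HSC with MEP), 1 array each. With scan day fitted, HSC and myeloid populations are thus set against each other only through these unnumbered arrays. The scanner files of day 1, all of myeloid arrays, came from another software version than those of all other days. The slides of day 1 held myeloid arrays only and those of day 4 HSC arrays only. Without a term for scan day, software version and slide therefore go partly with the class of cell. Software version cannot be told apart from scan day 1. The listed HSC markers (6 genes) averaged 10.50 to 11.02 in LT-HSC and 5.75 to 6.50 in MEP, and the MEP markers (5 genes) averaged 13.60 to 13.89 in MEP against 7.06 to 12.15 elsewhere. Markers of mature neutrophils (5 of 5 above background on every array) averaged 14.46 to 15.35 over the LT-HSC arrays, 11.92 to 15.12 over those of the other HSC subsets and 10.98 to 13.77 over the myeloid ones. Markers of B cells (3 or 4 of 4 above background on each array, Cd79a on none of CMP and MEP) averaged 9.83 to 10.16, 8.31 to 9.22 and 6.99 to 8.83 in the same order. Markers of T cells (4 genes) averaged 4.63 to 6.21 in the HSC subsets and 3.55 to 4.67 in the myeloid populations. Those of monocytes and macrophages (4 genes) averaged 6.15 to 6.61 in MEP and 7.57 to 10.54 elsewhere. Those of endothelial cells (4 genes, of which Cdh5, Kdr and Tek were not well above background on any MEP array) averaged 3.12 to 3.41 in MEP and 4.06 to 5.32 elsewhere, and those of mature erythroid cells (4 genes) 10.77 to 12.34 and 5.94 to 10.75. Markers of megakaryocytes and platelets (4 genes) averaged 6.98 to 11.02 in the HSC subsets, 10.66 to 11.74 in CMP, 8.83 to 9.73 in GMP and 7.03 to 7.85 in MEP. Markers of mast cells (3 genes) averaged 8.22 to 9.12 in GMP, 7.52 to 8.42 in ST-HSC and 5.03 to 6.64 elsewhere, those of stromal cells (5 genes) 4.66 to 5.37 in GMP and 5.08 to 7.27 elsewhere, and those of GMP (6 genes) 14.93 to 15.24 in GMP and 8.86 to 13.57 elsewhere. The part of these lists in the results was not tested.

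Sequences upstream of 4 of the genes are shown because those genes were lower in MEP than in the other populations. They are the 250 bases before the annotated start, on the gene's own strand, as RefSeq gives them for GRCm38.p6. An entry was found for 6 of the 10 genes, with 2 starts for Tgfbr1, of which the first is printed. For Bmpr2 the window was chr1:59764029-59764278 (+ strand), for Tgfbr1 chr4:47352972-47353221 (+ strand), for Smad1 chr8:79399429-79399678 (- strand) and for Tgfbr2 chr9:116175364-116175613 (- strand). Capitals mark the letters GGGCGG (the GC box of Sp1 factors) and CAGAC (the Smad-binding box), searched on both strands.
Bmpr2: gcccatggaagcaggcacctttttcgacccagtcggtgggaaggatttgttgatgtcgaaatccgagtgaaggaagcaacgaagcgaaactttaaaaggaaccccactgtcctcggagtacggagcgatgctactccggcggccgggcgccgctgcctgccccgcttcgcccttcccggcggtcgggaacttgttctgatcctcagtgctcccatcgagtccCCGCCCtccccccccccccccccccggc
Tgfbr1: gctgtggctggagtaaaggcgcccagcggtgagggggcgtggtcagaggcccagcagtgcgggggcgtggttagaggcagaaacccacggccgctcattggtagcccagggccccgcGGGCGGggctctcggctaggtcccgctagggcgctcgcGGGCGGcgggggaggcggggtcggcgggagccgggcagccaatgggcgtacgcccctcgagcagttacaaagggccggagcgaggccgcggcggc
Smad1: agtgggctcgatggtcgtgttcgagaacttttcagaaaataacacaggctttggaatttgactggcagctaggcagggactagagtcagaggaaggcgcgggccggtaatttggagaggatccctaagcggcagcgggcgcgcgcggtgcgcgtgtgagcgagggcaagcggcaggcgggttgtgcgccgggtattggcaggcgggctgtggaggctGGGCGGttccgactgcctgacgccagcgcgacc
Tgfbr2: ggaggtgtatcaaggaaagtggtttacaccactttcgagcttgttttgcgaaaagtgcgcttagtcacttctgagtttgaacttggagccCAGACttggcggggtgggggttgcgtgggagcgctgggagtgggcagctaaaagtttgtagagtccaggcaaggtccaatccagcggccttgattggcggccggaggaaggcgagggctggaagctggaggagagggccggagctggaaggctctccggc
The printed window of Tgfbr1 held GGGCGG 2 times and those of Bmpr2 and Smad1 held it 1 time each, while 32.7% of all 32851 promoter windows held it. The window of Tgfbr2 held CAGAC 1 time and no GGGCGG, and 42.2% of all windows held CAGAC. The windows of Bmpr1a and Smad3, which were not called lower in MEP and are not printed, held GGGCGG 4 and 2 times and CAGAC 0 times. The window of the other Tgfbr1 start (chr4:47385966-47386215, + strand) held CAGAC 1 time and GGGCGG 0 times. Neither GATAA (the Gata motif, in 22.6% of windows) nor CCGGAA (an Ets motif, in 12.0%) was found in these 7 windows.

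Across the 6 populations, 11 of the 19 probes were called by limma's F-test, against 40.6% of all probes. At the stricter p under 1e-06 that the methods used, 3 of the 19 passed, against 4.9% of all probes. These were the leading probes (the probe of a gene with the highest mean) of Smad1, Tgfbr2 and Smad7. Most called probes were lower in MEP than in the HSC subsets, and the members parted ways in GMP. Tgfbr2 was lower at each step from MPP through CMP to GMP, Smad1 was low in MEP alone, and Smad7 was lowest in GMP. Smad2 was not called in any comparison, and Bmpr1a was at or near background almost everywhere.

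**Figure D1:**
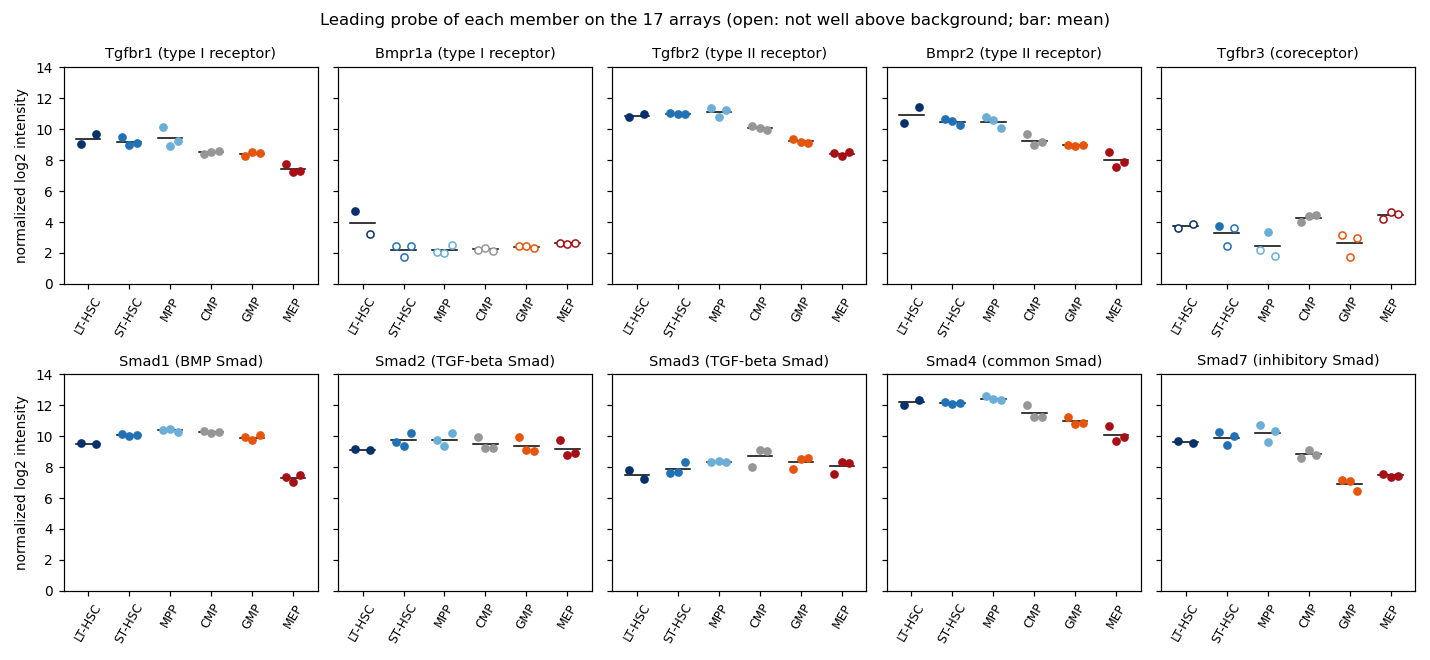
Normalized log2 intensity of the leading probe of each of the 10 genes (vertical axis) on each array, by population (horizontal axis). Filled points were well above background, open points were not, and bars are population means. Smad1 is low on the 3 MEP arrays (7.03 to 7.51) and at 9.48 to 10.47 on all others, while Tgfbr2 steps down through CMP, GMP and MEP.

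Tgfbr1 encodes the type I receptor of TGF-beta. Its leading probe (A_52_P4538, chr4:47427421-47427480 in mm9) was at 9.08 and 9.66 in LT-HSC, at 8.96, 9.09 and 9.47 in ST-HSC and at 8.94, 9.23 and 10.16 in MPP. It was at 8.40, 8.56 and 8.61 in CMP, at 8.26, 8.46 and 8.54 in GMP and at 7.24, 7.32 and 7.73 in MEP. All 8 HSC arrays lay above all 9 myeloid arrays, CMP and GMP overlapped, and MEP lay below everything else. MEP was 2.94-fold lower than the mean of the other populations (log2 difference -1.56, SE 0.22, adjusted p = 9.82e-05 by limma). The difference was -1.52 (adjusted p = 0.00274) when scan day was fitted. The HSC subsets were 2.3-fold higher than the myeloid populations (log2 difference 1.20, SE 0.17, adjusted p = 8.02e-05). That difference was no longer called once scan day was fitted, at 0.95 (adjusted p = 0.101).

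The second probe of Tgfbr1 (A_51_P280137) lies in the coding part of the transcript and spans a splice junction between chr4:47419898 and 47423556 in mm9. Its sequence is printed because it reads the kinase part of the same mRNA and gave hardly any signal.
Tgfbr1 probe 2: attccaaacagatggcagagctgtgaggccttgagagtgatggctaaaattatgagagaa
The scanner marked it well above background on 8 of 17 arrays, at values of 1.98 to 4.74 over all of them, and it was called in no comparison. Over the 17 arrays its correlation with the leading probe was r = -0.08, which describes 2 probes read on the same arrays.

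Bmpr1a encodes a type I receptor of BMPs. Its probe 1 (A_52_P17146, chr14:35224339-35224398) was well above background on 1 array only, the pooled LT-HSC array, at 4.69. The other LT-HSC array was at 3.20, ST-HSC at 1.75, 2.44 and 2.44, MPP at 1.97, 2.06 and 2.52 and the myeloid arrays at 2.12 to 2.64. This gave the 1 call from LT-HSC to ST-HSC among 19 probes, lower in ST-HSC, where 2.49% of all probes were called lower and 0.852% higher. Since 1 of 2 LT-HSC arrays and 0 of 3 ST-HSC arrays were well above background, no fold is given for this call (adjusted p = 0.0151). The fitted log2 difference of -1.74, largely between values at background, changed without the pooled LT-HSC array (-0.99, adjusted p = 0.0378), and its call ended without ST-HSC replicate 3 (-1.51, adjusted p = 0.057), with the authors' table (-0.53, adjusted p = 0.142), with normexp background correction (-0.27, adjusted p = 0.232) and with slide as a random block (-1.65, adjusted p = 0.133). Probe 2 (A_52_P624572, chr14:35227690-35227749) was well above background on GMP replicate 1 alone, while the other GMP arrays were at 3.19 and 1.73. Its call of GMP against the other populations (adjusted p = 0.0241) is given without a difference, since almost all values were at background. It ended without that array (adjusted p = 0.143) or GMP replicate 2 (adjusted p = 0.0812), when scan day was fitted (adjusted p = 0.169), with a replicate block (adjusted p = 0.0576), under 75th percentile scaling (adjusted p = 0.472) and with normexp (adjusted p = 0.134). The 2 probes were not high in the same population, and neither was well above background on any ST-HSC, MPP, CMP or MEP array.

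Tgfbr2 encodes the type II receptor, which binds TGF-beta first. Its leading probe (A_51_P450573, chr9:115997155-115997214 in mm9, - strand) was at 10.82 and 10.96 in LT-HSC, at 10.96, 10.97 and 11.03 in ST-HSC and at 10.79, 11.26 and 11.35 in MPP. It was at 9.97, 10.11 and 10.19 in CMP, at 9.10, 9.20 and 9.34 in GMP and at 8.29, 8.44 and 8.52 in MEP. MPP overlapped both other HSC subsets, the LT-HSC arrays ended just below the ST-HSC arrays, and CMP, GMP and MEP followed below without overlap. By their means (± SD) the order was MPP (11.13 ± 0.30, n = 3), ST-HSC (10.99 ± 0.03, n = 3), LT-HSC (10.89 ± 0.10, n = 2), CMP (10.09 ± 0.11, n = 3), GMP (9.21 ± 0.12, n = 3) and MEP (8.42 ± 0.12, n = 3), and neither the step from LT-HSC to ST-HSC nor that from ST-HSC to MPP was called.

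The HSC subsets were 3.39-fold higher than the myeloid populations in Tgfbr2 (log2 difference 1.76, SE 0.09, adjusted p = 2.77e-08). The level fell from MPP to CMP (log2 difference -1.04, SE 0.15, adjusted p = 0.0011), from CMP to GMP (log2 difference -0.88, SE 0.15, adjusted p = 0.0043) and from CMP to MEP (log2 difference -1.67, SE 0.15, adjusted p = 5.34e-06). Fitting scan day gave -1.03 (adjusted p = 0.0203), -0.88 (adjusted p = 0.00428) and -1.62 (adjusted p = 6.21e-05) for these steps. GMP minus CMP was -0.89 within scan day 1 (2 arrays each) and -0.85 within scan day 2 (1 array each). In a bulk sample, fewer cells that hold an mRNA and less of it per cell cannot be told apart.

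Tgfbr2 probe 2 (A_52_P251403, chr9:116019196-116019255) lies in the coding part, in the stretch just inside the membrane, and is printed because it reads an internal stretch of the mRNA far from the leading probe.
Tgfbr2 probe 2: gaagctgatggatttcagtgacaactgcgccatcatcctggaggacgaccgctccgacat
It read 2.77 to 5.40 and was well above background on 10 of 17 arrays, and it was called in no comparison. Probe 3 (A_52_P3811, chr9:116039845-116039904) was well above background on 0 of 17 arrays. The calls of Tgfbr2 thus rest on 1 probe, whose correlation over the 17 arrays was r = -0.10 with probe 2 and r = 0.06 with probe 3.

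Bmpr2 encodes the type II receptor of BMPs, and 2 of its 3 probes gave one pattern. Probe 1 (A_51_P518698, chr1:59934262-59934321) was at 10.41 and 11.47 in LT-HSC, at 10.30, 10.52 and 10.67 in ST-HSC and at 10.09, 10.57 and 10.79 in MPP. It was at 8.98, 9.17 and 9.66 in CMP, at 8.89, 8.98 and 8.99 in GMP and at 7.57, 7.88 and 8.52 in MEP. The lowest HSC array was above the highest myeloid array, CMP and GMP were not separated, and MEP was lowest. Probe 3 (A_51_P492648, chr1:59931925-59931984) followed it over the 17 arrays at r = 0.94, with HSC arrays at 5.70 to 6.80, CMP at 5.47 to 6.01, GMP at 4.69 to 5.28 and MEP at 3.97 to 4.60.

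The HSC subsets were 3.74-fold higher than the myeloid populations on Bmpr2 probe 1 (log2 difference 1.90, SE 0.18, adjusted p = 4.79e-06), with a difference of 1.17 (adjusted p = 0.0279) when scan day was fitted. MEP was 4.12-fold lower than the other populations (log2 difference -2.04, SE 0.24, adjusted p = 2e-05), with -1.71 (adjusted p = 0.000535) when scan day was fitted. Probe 3 was not well above background on any MEP array, so MEP was at least 2.55-fold lower there. Such a bound sets the dim probe on each array at its own value or at the lowest value of any probe well above background there, whichever was higher. Probe 2 (A_51_P419389, chr1:59927276-59927335) went its own way, at 5.30 to 5.71 in MEP, 6.48 to 6.70 in CMP and 5.41 to 6.80 in the HSC subsets, with r = -0.03 to probe 1. It was called in no comparison, although all 3 MEP arrays lay below all CMP arrays, and fitting scan day gave a call for MEP against the others at -1.18 (adjusted p = 0.0018).

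**Figure D2:**
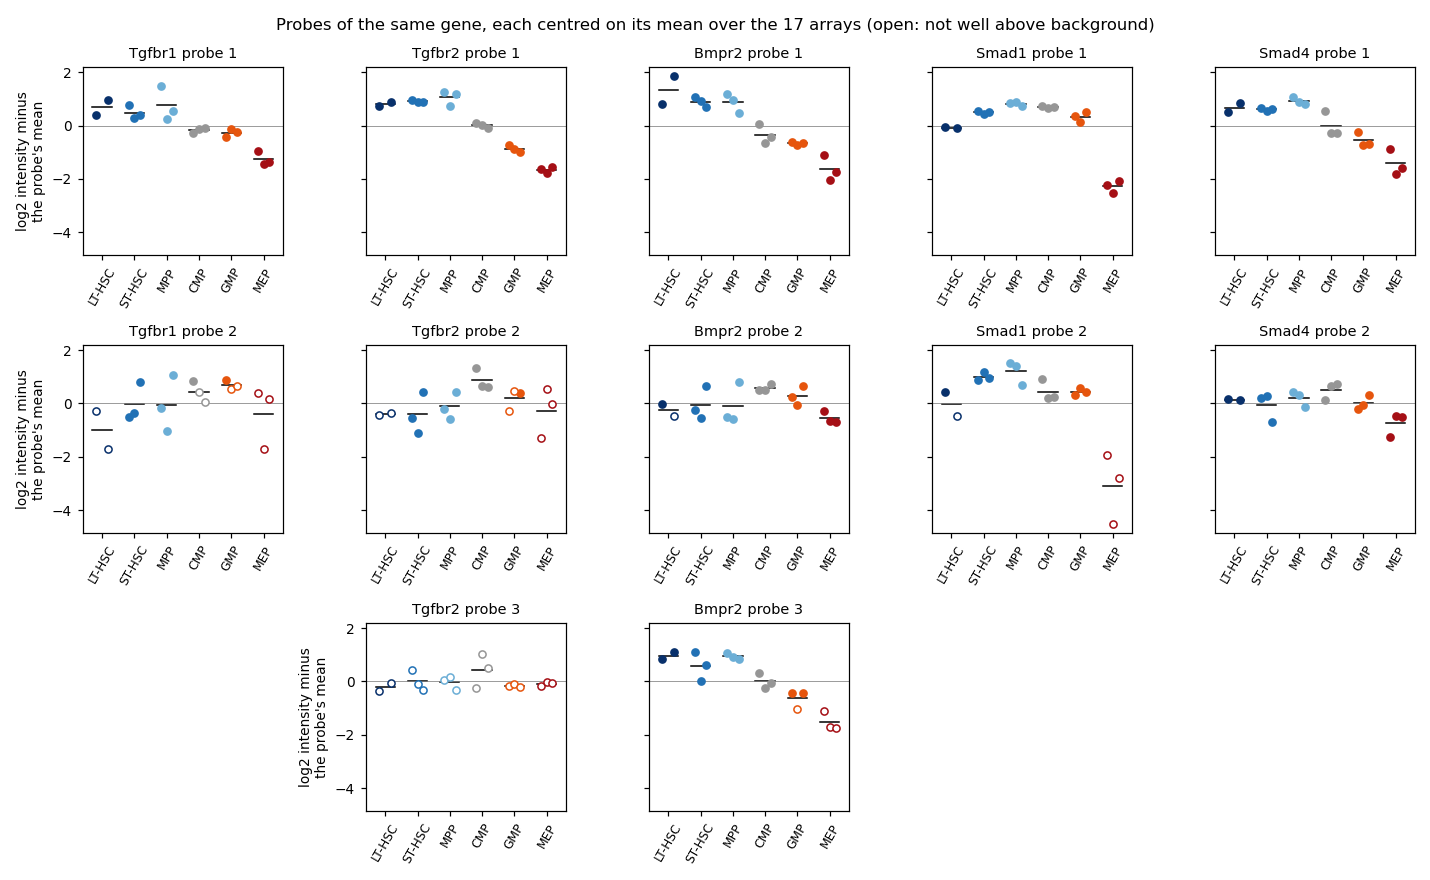
Probes of 5 genes, each as log2 intensity minus its own mean over the 17 arrays (vertical axis), by population (horizontal axis), with filled points well above background, open points not, and bars at population means. Bmpr2 probes 1 and 3 and both Smad1 probes are lowest in MEP, while Tgfbr1 probe 2 and Tgfbr2 probes 2 and 3 show no called change.

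Tgfbr3 encodes betaglycan, a coreceptor that presents ligand to the type II receptor. Its only probe (A_51_P255899, chr5:107537905-107537964) was well above background on 5 of 17 arrays, among them all 3 of CMP at 4.02, 4.36 and 4.44. MPP was at 1.77, 2.19 and 3.38, below every CMP array. Since 1 of 3 MPP arrays was well above background, no difference is given for the call from MPP to CMP (adjusted p = 0.0224). That call was lost without MPP replicate 2 (adjusted p = 0.0972), the unnumbered MPP array (adjusted p = 0.053), CMP replicate 1 (adjusted p = 0.0791) or CMP replicate 2 (adjusted p = 0.0894), and when scan day was fitted (adjusted p = 0.175). It also ended under 75th percentile scaling (adjusted p = 0.144), with normexp (adjusted p = 0.104) and with a replicate block (adjusted p = 0.0633). The MEP arrays read 4.18 to 4.63 but were not well above their own background, so no fold is given for the call of MEP against the others (adjusted p = 0.0223). That call too was lost without MEP replicate 1 (adjusted p = 0.0988) or MEP replicate 2 (adjusted p = 0.0845), when scan day was fitted (adjusted p = 0.103), under 75th percentile scaling (adjusted p = 0.384) and with normexp (adjusted p = 0.0856). A replicate block ended the call as well.

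Smad1, the receptor-regulated Smad of the BMP branch, gave the smallest F-test p of the 19 probes (1.31e-10, adjusted p = 6.18e-08 by limma). Its leading probe (A_51_P409260, chr8:81863418-81863474, - strand) was at 9.48 and 9.53 in LT-HSC, at 10.02, 10.10 and 10.11 in ST-HSC and at 10.29, 10.41 and 10.47 in MPP. It was at 10.23, 10.26 and 10.31 in CMP, at 9.72, 9.93 and 10.09 in GMP and at 7.03, 7.37 and 7.51 in MEP. The 14 arrays outside MEP lay in a narrow band, and the MEP arrays were well below it. MEP was 6.62-fold lower than the mean of the others (log2 difference -2.73, SE 0.11, adjusted p = 4.81e-09), with a difference of -2.69 (adjusted p = 1.64e-06) when scan day was fitted. Against CMP alone MEP was lower as well (log2 difference -2.96, SE 0.14, adjusted p = 5.56e-08), and within scan day 1, with 2 arrays each, the difference was -2.97.

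The call of Smad1 as higher in HSC subsets than in myeloid populations (log2 difference 0.83, SE 0.09, adjusted p = 8.48e-06) stands beside overlapping values. CMP and GMP arrays overlapped those of the HSC subsets, and both LT-HSC arrays were below all CMP and GMP arrays. No single step from LT-HSC through ST-HSC, MPP and CMP to GMP was called, and that from LT-HSC to ST-HSC was 0.58 (SE 0.16, adjusted p = 0.0686). The second probe (A_52_P65108, chr8:81863015-81863074) followed the leading one at r = 0.94 and was at 5.74 to 7.75 outside MEP. The probe was not well above background on any MEP array (1.69, 3.41 and 4.30), so the mRNA was at least 4.31-fold lower in MEP than in the others there (adjusted p = 8.49e-06). With the MEP arrays at the same bound, the HSC subsets were at least 1.91-fold higher than the myeloid populations (adjusted p = 0.00158), a call that was lost when scan day was fitted (adjusted p = 0.633) and with a replicate block (adjusted p = 0.0686).

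Smad2 and Smad3 carry the TGF-beta signal. Smad2 (A_52_P397280, chr18:76464620-76464679) was at 9.09 and 9.17 in LT-HSC, at 9.35, 9.65 and 10.1999 in ST-HSC and at 9.35, 9.77 and 10.23 in MPP. It was at 9.21, 9.27 and 9.96 in CMP, at 9.05, 9.13 and 9.92 in GMP and at 8.80, 8.89 and 9.74 in MEP. In ST-HSC, MPP, CMP, GMP and MEP the highest array was the unnumbered one, which was scanned on another day than the rest of its population. The F-test gave an adjusted p of 0.46 by limma, and HSC subsets and myeloid populations overlapped (log2 difference 0.22, SE 0.21, adjusted p = 0.427).

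Smad3 probe 1 (A_52_P352277, chr9:63495131-63495190) was at 7.23 and 7.79 in LT-HSC, at 7.62, 7.67 and 8.30 in ST-HSC and at 8.31, 8.34 and 8.42 in MPP. It was at 8.01, 9.07 and 9.13 in CMP, at 7.85, 8.54 and 8.59 in GMP and at 7.54, 8.28 and 8.36 in MEP. In each myeloid population the unnumbered array was the lowest. Between HSC subsets and myeloid populations the probe was not called (log2 difference -0.46, SE 0.20, adjusted p = 0.0835), and the difference turned to 0.28 (adjusted p = 0.415) when scan day was fitted. It passed the threshold without the unnumbered array of CMP (-0.59, adjusted p = 0.0173), GMP (-0.54, adjusted p = 0.0473), MEP (-0.55, adjusted p = 0.04) or ST-HSC (-0.54, adjusted p = 0.0475). Fitting scan day also gave a call for MEP against the others (-0.64, adjusted p = 0.0131), where the fit of population means had -0.10. Probe 2 (A_51_P441022, chr9:63497492-63497551), dim at 1.99 to 5.41, was called lower in the HSC subsets (adjusted p = 0.0115), with 5 of 8 HSC arrays well above background and 0 of 2 in LT-HSC, so no difference is given. That call ended when scan day was fitted (adjusted p = 0.593), without both LT-HSC arrays (adjusted p = 0.0727) and under 75th percentile scaling (adjusted p = 0.466).

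Smad4 is the common partner of all receptor-regulated Smads. Its leading probe (A_52_P611867, chr18:73798705-73798764) was at 12.01 and 12.36 in LT-HSC, at 12.06, 12.14 and 12.18 in ST-HSC and at 12.31, 12.40 and 12.59 in MPP. It was at 11.21, 11.25 and 12.04 in CMP, at 10.79, 10.82 and 11.27 in GMP and at 9.71, 9.93 and 10.63 in MEP. The unnumbered CMP array reached above the lowest HSC array, all other myeloid arrays lay below the HSC arrays, and MEP was lowest. The HSC subsets were 2.63-fold higher (log2 difference 1.40, SE 0.16, adjusted p = 1.62e-05), with a difference of 0.84 (adjusted p = 0.00779) when scan day was fitted. MEP was 3.37-fold lower than the others (log2 difference -1.75, SE 0.20, adjusted p = 2.06e-05), with -1.47 (adjusted p = 2.66e-05) when scan day was fitted.

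The second probe of Smad4 (A_51_P444740, chr18:73798647-73798681) was at 7.49 to 8.62 in the HSC subsets, at 8.34, 8.87 and 8.93 in CMP, at 7.98, 8.12 and 8.51 in GMP and at 6.95, 7.69 and 7.71 in MEP. It was called lower in MEP than in the others (log2 difference -0.90, SE 0.23, adjusted p = 0.0085), while HSC subsets and CMP overlapped. Without the unnumbered MEP array that call ended (-0.65, adjusted p = 0.0716), and with a term for scan day it was -0.72 (adjusted p = 0.00113). Its correlation with the leading probe was r = 0.41, and the higher level in HSC subsets was called on the leading probe alone.

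Smad7, the inhibitory Smad, had the largest difference between HSC subsets and myeloid populations of the 19 probes. Its probe (A_51_P403636, chr18:75555371-75555430) was at 9.54 and 9.70 in LT-HSC, at 9.43, 10.04 and 10.25 in ST-HSC and at 9.65, 10.35 and 10.70 in MPP. It was at 8.60, 8.80 and 9.13 in CMP, at 6.42, 7.08 and 7.14 in GMP and at 7.35, 7.44 and 7.58 in MEP. HSC arrays, CMP arrays, MEP arrays and GMP arrays followed one another downward without overlap. The HSC subsets were 4.57-fold higher than the myeloid populations (log2 difference 2.19, SE 0.17, adjusted p = 1.03e-06), and the difference was 2.27 (adjusted p = 0.00523) when scan day was fitted.

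GMP was 5.02-fold lower in Smad7 than the mean of the other populations (log2 difference -2.33, SE 0.23, adjusted p = 1.3e-05). The level fell from CMP to GMP (log2 difference -1.96, SE 0.29, adjusted p = 0.00138) and from CMP to MEP (log2 difference -1.39, SE 0.29, adjusted p = 0.00416). GMP minus CMP was -2.21 within scan day 1 (2 arrays each) and -1.45 within scan day 2 (1 array each). The step from MPP to CMP (log2 difference -1.39, SE 0.29, adjusted p = 0.00929) lost its call without MPP replicate 2 (-1.16, adjusted p = 0.0534) and when scan day was fitted (-1.45, adjusted p = 0.115).

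Read by comparison, 9 of the 19 probes were called between HSC subsets and myeloid populations. Higher in the HSC subsets were 8 probes of 6 genes, Tgfbr1, Tgfbr2, Bmpr2, Smad1, Smad4 and Smad7, against 18.2% of all probes, and lower was 1 probe of Smad3, against 23.1%. When scan day was fitted 6 were called, all of them among the 9. The median difference was 0.22 over the 19 probes and -0.02 over all probes.

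By limma, MEP differed from the other populations in 10 of the 19 probes. Lower in MEP were 9 probes of the same 6 genes, against 13.4% of all probes, and higher was 1 of Tgfbr3, against 17.9%. The median difference was -0.63 over the 19 probes and 0.04 over all probes. Fitting scan day gave 11 calls, 9 of the 10 among them. From CMP to MEP 9 probes of these 6 genes were lower and limma called 0 higher, against 9.43% and 7.24% of all probes, with 11 of 19 at an unadjusted p under 0.05 and 11 called when scan day was fitted. The call of Tgfbr1 in that step (log2 difference -1.09, SE 0.28, adjusted p = 0.015) ended without MEP replicate 1 (-0.999, adjusted p = 0.0608), MEP replicate 2 (-1.04, adjusted p = 0.0527) or CMP replicate 2 (-1.05, adjusted p = 0.0549), and that of Bmpr2 probe 1 (log2 difference -1.28, SE 0.30, adjusted p = 0.00976) without MEP replicate 1 (-1.07, adjusted p = 0.0501).

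For GMP against the other populations the calls were 7 of the 19 probes. Lower were 5 probes of Tgfbr2, Bmpr2, Smad4 and Smad7, against 8.51% of all probes, and higher were probe 2 of Bmpr1a and the leading probe of Smad1, against 11.2%. When scan day was fitted the calls were those of Tgfbr2 and Smad7 alone. Smad1 at 0.41 ended as a call without the unnumbered GMP array (0.40, adjusted p = 0.0738) or GMP replicate 2 (0.32, adjusted p = 0.162). Bmpr2 probe 1 at -0.88 ended as one without the unnumbered GMP array (-0.90, adjusted p = 0.0592), replicate 1 (-0.85, adjusted p = 0.0799) or replicate 2 (-0.90, adjusted p = 0.0749), and probe 3 at -0.82 without GMP replicate 1 (-0.62, adjusted p = 0.13). Smad4 at -0.70 ended without GMP replicate 1 (-0.62, adjusted p = 0.135) or replicate 2 (-0.64, adjusted p = 0.142). From CMP to GMP limma called Tgfbr2 and Smad7, 2 lower and 0 higher, against 2.93% and 1.84% of all probes, with 6 of 19 at an unadjusted p under 0.05 and 4 called when scan day was fitted. The added calls were both probes of Smad4, at -0.54 (adjusted p = 0.0301) and -0.51 (adjusted p = 0.0253).

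**Figure D3:**
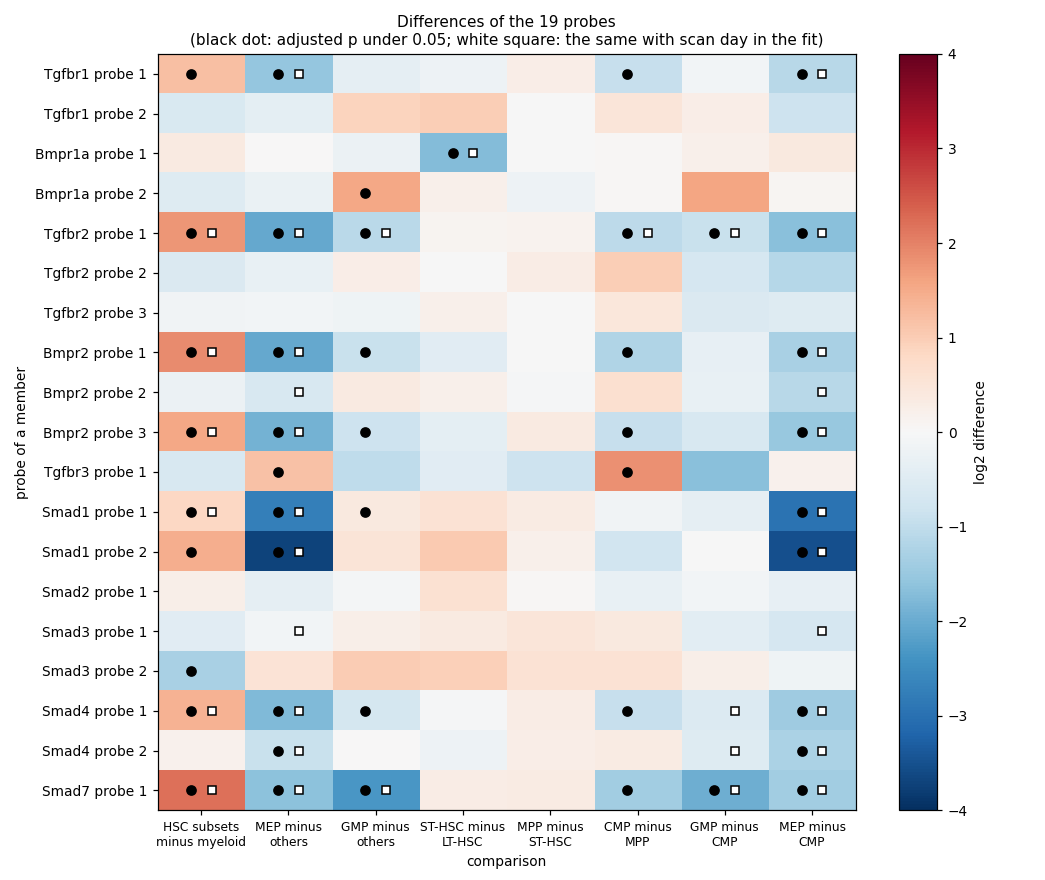
Log2 difference (colour) of the 19 probes (rows) in 8 comparisons (columns). Black dots mark adjusted p under 0.05 in the fit of population means and white squares the same with scan day in the fit. In the column of MEP against the others 9 probes are called lower, and the column from ST-HSC to MPP holds no call.

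Within the HSC subsets little was called. From ST-HSC to MPP limma called 0 of 19 probes, with 1 at an unadjusted p under 0.05 and 0 called when scan day was fitted, where 1.15% of all probes were called higher and 0.874% lower. From MPP to CMP 7 probes were called, 6 lower (Tgfbr1, Tgfbr2, Smad4, Smad7 and 2 of Bmpr2) and 1 higher (Tgfbr3), against 5.39% and 6.75% of all probes. When scan day was fitted the call of Tgfbr2 was the 1 that remained. Tgfbr1 (log2 difference -0.91, SE 0.28, adjusted p = 0.0495) moved most without MPP replicate 2 (-0.56, adjusted p = 0.205), and of the 17 arrays left out in turn 12 ended its call (all 3 each of ST-HSC, CMP and GMP, MEP replicates 1 and 2 and MPP replicate 2). For Bmpr2 probe 1 and the leading probe of Smad4 the calls ended without MPP replicate 2 or 3 or CMP replicate 1 or 2, with adjusted p up to 0.108 and 0.151 by limma, and for Bmpr2 probe 3 without any 1 of 9 arrays (all 3 of MPP, CMP and MEP replicates 1 and 2, GMP replicate 2 and the unnumbered GMP array), with adjusted p up to 0.162.

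**Figure D4:**
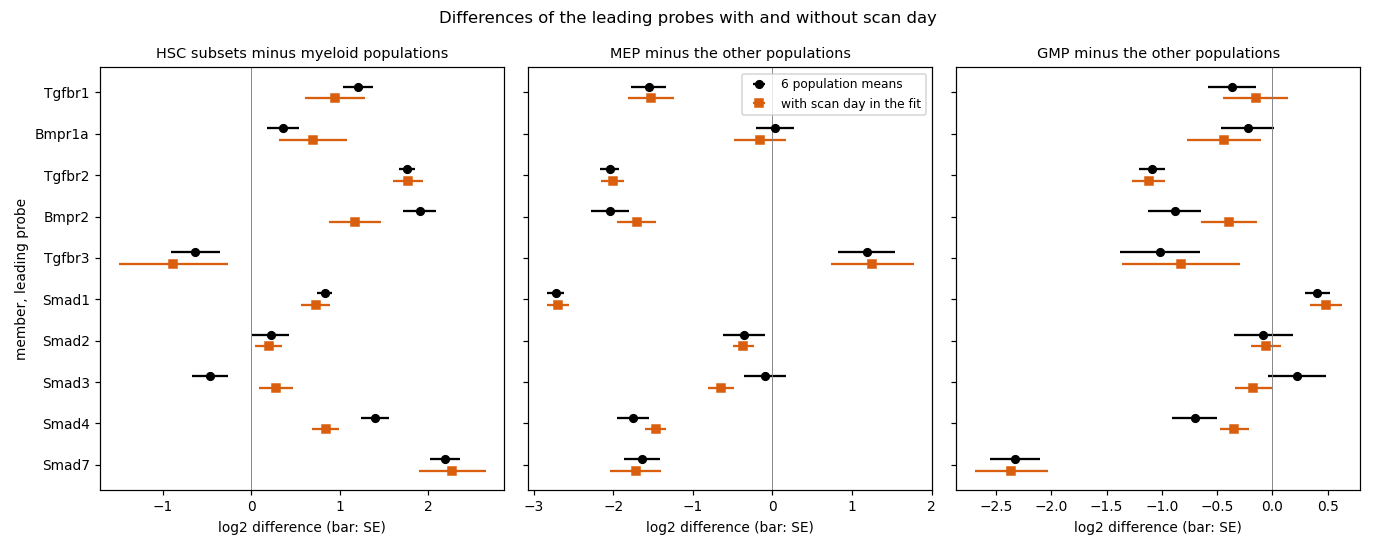
Log2 difference of the leading probe of each gene (vertical axis) in 3 comparisons (horizontal axes, bars are SE), from the fit of 6 population means (black) and with scan day in the fit (orange). Between HSC subsets and myeloid populations Tgfbr2 moves from 1.76 to 1.77, Bmpr2 from 1.90 to 1.17, and Smad3 changes sign.

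Over the 17 arrays the leading probes of Tgfbr2 and Smad4 had r = 0.96, those of Bmpr2 and Smad4 r = 0.95 and those of Tgfbr2 and Bmpr2 r = 0.93, while Smad1 and Smad7 had r = 0.51. These values describe probes read on the same 17 arrays and carry no test. Likeness to each member was then ranked among 15379 genes whose leading probe was well above background on at least 9 arrays, with Pearson's r over the 17 arrays in parentheses. Most like Tgfbr1 were Pptc7 (0.97), Gna13 (0.969) and Ahr (0.962), most like Tgfbr2 were Bok (0.989), Emcn (0.986) and Myct1 (0.986) and most like Bmpr2 were Nfkb1 (0.981), Tcp11l2 (0.979) and Lamc1 (0.977). Among the Smads, most like Smad1 were Trpm4 (0.987), Lass5 (0.985) and Parp8 (0.985), most like Smad4 were Sesn3 (0.99), Marcks (0.988) and Hoxa5 (0.988) and most like Smad7 were Dusp10 (0.987), Pnrc1 (0.978) and Nr4a1 (0.978). The values were lower for Smad2, with Dnajb6 (0.954), EG668450 (0.949) and Tmem189 (0.936), and for Smad3, with Clcn6 (0.957), Il17ra (0.909) and Vgll4 (0.908). They were lowest for the members near background, Tgfbr3, with Cpne7 (0.889), 1810010M01Rik (0.817) and Fbxl13 (0.815), and Bmpr1a, with Igk-V38 (0.885), LOC676193 (0.866) and ENSMUST00000103337 (0.864).

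The other genes of the pathway were read at their leading probes from lists by role, 58 genes in all. The F-test called 31 of them, against 40.6% of all probes. Higher in the HSC subsets were 29 and lower 3, against 18.2% and 23.1% of all probes. When scan day was fitted these numbers were 18 and 1, and the 1 lower gene was then Tgfb2, which was well above background on 0 arrays and not among the 3. Lower in MEP were 21 and higher 1, against 13.4% and 17.9% of all probes, and with a term for scan day 21 and 3. The median difference was 0.60 for HSC subsets against myeloid populations and -0.39 for MEP against the others, where the medians of all probes were -0.02 and 0.04. The numbers by role below are small and are to be read against the same shares of all probes. Those shares include dim and second probes, while each listed gene was read at its brightest probe, so they are not fully alike.

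Of 3 other Smads, 2 were called across populations. Smad5, like Smad1 a BMP Smad, was at 11.29 to 11.75 as the mean of each HSC subset and 9.65 in MEP (MEP against the others -1.53, SE 0.17, adjusted p = 1.17e-05). Smad6, the inhibitory Smad of the BMP branch, was at 6.75 to 7.51 in the HSC subsets and 5.10 in MEP, where 1 of 3 arrays was well above background, so no difference is given for its call of MEP against the others (adjusted p = 0.000178). Both were also called higher in the HSC subsets, with and without a term for scan day.

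Of 9 other receptors and coreceptors, 4 were called across populations, 3 were called lower in MEP and 1 higher. Acvr1b, the type I receptor of activins, was at 9.14 to 10.56 as the mean of each other population and 6.20 in MEP (-3.47, SE 0.22, adjusted p = 1e-07). Acvr1, a type I receptor of BMPs, was at 6.40 to 6.91 and, in MEP, at 4.06, with 1 of 3 MEP arrays well above background, so that the call is given without a difference (adjusted p = 3.44e-05). Eng, which encodes the coreceptor endoglin, went the other way, at 11.36 in MEP and 9.47 in GMP (MEP against the others 0.95, SE 0.15, adjusted p = 0.000336).

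Of 12 ligands, 6 were called across populations, 4 were called higher in the HSC subsets and 1, Tgfb1, lower. For Tgfb1 the difference of -0.97 (adjusted p = 0.00495) was -0.01, adjusted p = 0.989 when scan day was fitted. Gdf15, a distant family member, was at 9.95 to 10.34 in the HSC subsets and 6.84 to 7.95 in the myeloid populations (HSC subsets against myeloid populations 2.70, SE 0.15, adjusted p = 5.81e-08). Bmp7 was at 6.81 in LT-HSC and 6.55 in ST-HSC, and was well above background on 1 of 3 GMP and 0 of 3 MEP arrays, so no difference is given for its call of HSC subsets against myeloid populations (adjusted p = 3.77e-05). Tgfb3 was at 7.04 in LT-HSC and 4.99 in GMP, where 2 of 3 arrays were well above background (HSC subsets against myeloid populations 1.07, SE 0.20, adjusted p = 0.000743), a call that was lost when scan day was fitted (0.62, adjusted p = 0.0564).

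Of 12 Smad partners and inhibitors, 8 were called across populations and 7 were called lower in MEP. Skil, which encodes the Smad corepressor SnoN, was at 10.81 to 11.33 in the HSC subsets, 7.72 in GMP and 8.12 in MEP (HSC subsets against myeloid populations 2.53, SE 0.31, adjusted p = 2.81e-05). Tgif2, another corepressor, was at 12.84 to 13.50 in the HSC subsets and 10.69 in GMP (GMP against the others -2.11, SE 0.19, adjusted p = 7.74e-06). Fkbp1a, which binds the resting type I receptor, was at 5.73 in MEP and 7.60 to 8.94 elsewhere (MEP against the others -2.57, SE 0.32, adjusted p = 3.81e-05).

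Of 14 extracellular binding and activating proteins, 5 were called across populations, a share below that of all probes, and 7 were called higher in the HSC subsets, 2 of them when scan day was fitted. Ltbp3, which binds latent TGF-beta, was at 10.48 to 10.87 in the HSC subsets and 7.41 in MEP (MEP against the others -2.78, SE 0.19, adjusted p = 1.41e-07). Itgav, an integrin subunit that takes part in activating latent TGF-beta, was at 7.14 to 7.63 in the HSC subsets and 4.57 in MEP, where 2 of 3 arrays were well above background (MEP against the others -2.41, SE 0.20, adjusted p = 9.57e-07). Ltbp2 was at 6.31 in LT-HSC and well above background on no myeloid array.

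Of 8 target genes, 6 were called across populations, 7 were called higher in the HSC subsets and 4 lower in MEP. Id1, a well known BMP target gene, was at 9.62 to 10.30 in the HSC subsets, 8.43 in CMP, 8.66 in GMP and 5.69 in MEP, with 2 of 3 MEP arrays well above background (MEP against the others -3.66, SE 0.29, adjusted p = 5.31e-07). Id2 was at 9.94 to 11.95 in the HSC subsets, 8.46 in GMP and 8.50 in MEP (HSC subsets against myeloid populations 1.86, SE 0.18, adjusted p = 4.74e-06). Tgfbi, a matrix protein induced by TGF-beta, was highest in GMP at 11.92 and lowest in MEP at 7.24 (MEP against the others -3.65, SE 0.29, adjusted p = 5.37e-07).

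**Figure D5:**
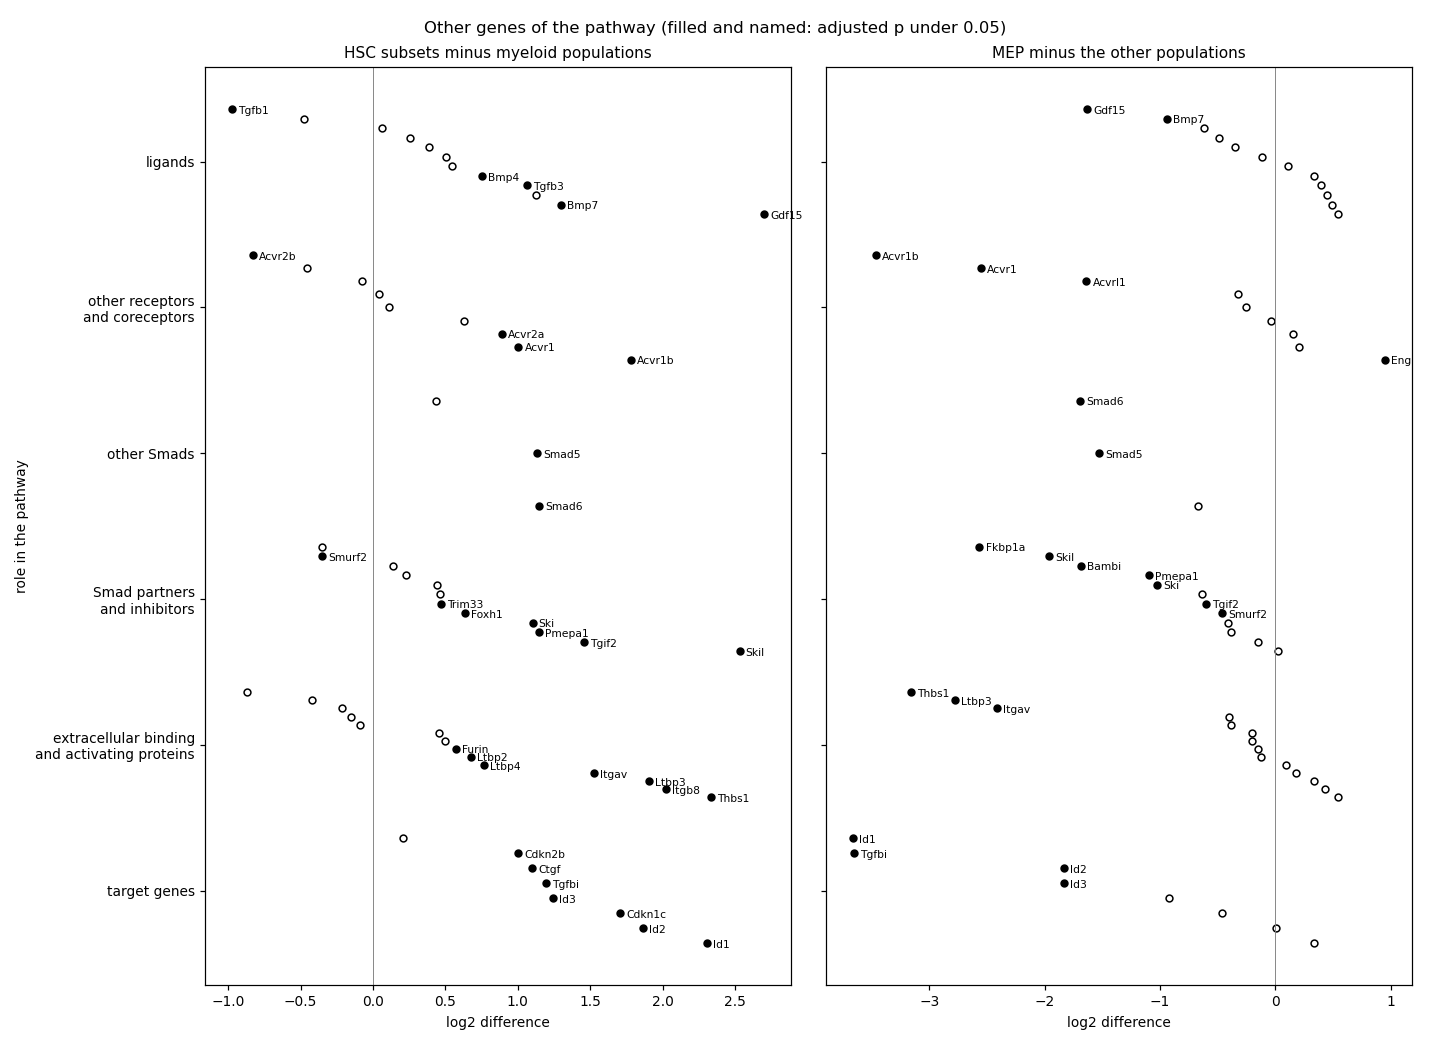
Log2 difference (horizontal axis) of 58 other pathway genes by role (vertical axis), in HSC subsets against myeloid populations (left) and in MEP against the others (right). Filled, named points have an adjusted p under 0.05. On the right 21 genes are called below 0 and 1, Eng, above.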

How the data were processed

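The mRNA of 6 sorted populations was read on 17 single-color arrays. The authors deposited the scanner output, in which a spot's intensity is already corrected for background but not normalized between arrays. They also deposited a table of log2 values, quantile normalized with limma (no version given in the sources used here), which served as an alternative. Array annotation was on mm9.

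The log2 of the intensities was quantile normalized with all spots included (limma 3.58.1, R 4.3.3). Then 1639 control spots and the outlier spots were dropped (161 probe values missing), and spots of a probe were averaged. One mean per population was fitted with lmFit and eBayes to 41174 probes, and each contrast and the F-test were called at a Benjamini-Hochberg adjusted p of 0.05, the F-test also at the methods' 1e-06. The fit was tested on simulated data of independent arrays, which held no effect of scan day, slide or replicate and so could not show what these do. Nothing states that replicates with the same number share animals, and the number of arrays limits the precision.

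The members, the pathway lists and the marker lists were chosen with earlier results of these data known. All members were named with every probe. Of each role the 3 called genes with the smallest F-test p were named. A gene was read at its probe with the highest mean, and 1 listed gene, Lrrc32, was not found by name. Marker lists of megakaryocytes and platelets (3 or 4 of 4 genes above background on each array), monocytes and macrophages (4 of 4), mature erythroid cells (2 to 4 of 4), T cells (1 to 4 of 4), endothelial cells (0 to 4 of 4), stromal cells (2 to 4 of 5), mast cells (1 to 3 of 3) and GMP (6 of 6) were read as well. A probe assigned to Smad3 in an older annotation alone was not used. Alternatives were 75th percentile scaling, normexp (offset of 50), a filter on dim probes, the table of the authors, scan day, slide or replicate number as a block, both LT-HSC arrays or each array left out, and 1 value per gene.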

Additional observations from a re-analysis of the deposited data

How the results depend on the processing

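Of 45 called differences of single probes, 29 were called with every array left out in turn, 30 with scan day in the fit and 24 in every alternative. For MEP against the others 8 of 10 calls stood in all alternatives but the mean of a gene's probes, for GMP against the others 2 of 7, for HSC subsets against myeloid populations 6 of 9, from CMP to MEP 7 of 9 and from MPP to CMP 1 of 7. Under 75th percentile scaling the median of all probes moved to 0.31 for HSC subsets against myeloid populations, to 0.49 from CMP to MEP, to -0.29 for GMP against the others, to 0.13 for MEP against the others, to -0.16 from LT-HSC to ST-HSC, to -0.15 from ST-HSC to MPP and to 0.14 from CMP to GMP, and no called difference of a member changed sign. Across the populations 11 of 19 probes were called, and 7 of 10 genes when a gene's probes were averaged. For GMP against the others it was 7, and 2 with scan day, 4 without both LT-HSC arrays, 1 with averaged probes and 3 to 8 with 1 array left out (3 without GMP replicate 1 or 2). From LT-HSC to ST-HSC it was 1, and 0 with slide as a random block, with averaged probes or on dropping dim probes, and 0 to 1 with 1 array left out (0 without ST-HSC replicate 3). From MPP to CMP it was 7, and 4 under 75th percentile scaling, 1 with scan day, 3 with slide as a random block, 2 with averaged probes and 1 to 7 with 1 array left out (1 without MPP replicate 2, 4 without MPP replicate 3, 2 without CMP replicate 1 or 2). From CMP to GMP it was 2, and 4 with scan day. From CMP to MEP it was 9, and 5 with averaged probes. Averaging puts a bright probe and one near background together by construction, and with it the step of Tgfbr2 from MPP to CMP turned from -1.04 to 0.13 and Smad3 in MEP from -0.10 to 0.22. With 1 array left out Smad3 in MEP ran from -0.25 (without MEP replicate 1) to 0.16 (without the unnumbered MEP array), and Smad3 between HSC subsets and myeloid populations turned to 0.28 with scan day. Within a sort, arrays of the same number had correlations of deviations of 0.13 to 0.52. Those pairs all shared a slide and a scan day as well. Among the myeloid populations no slide held more than 1 number, so number and slide cannot be told apart there. Unnumbered arrays had 0.67 (ST-HSC with MPP, on different slides and days), 0.42 to 0.51 (among CMP, GMP and MEP) and -0.06 and 0.11 (LT-HSC with ST-HSC and MPP). Across the 2 sorts number 2 had -0.06 to 0.01 and unnumbered arrays -0.13 to 0.07. On the 1 slide with ST-HSC and MPP arrays 2 and 3, same numbers had 0.52 and 0.29 and different numbers 0.33 and 0.10. The labels do not give what arrays of 1 number share. A replicate block, with unnumbered arrays as 1 level, held the pooled LT-HSC array as a level of its own. LT-HSC rested there on the unnumbered array alone, so counts that include LT-HSC are not given for this block. From MPP to CMP the block gave 4 probes, from ST-HSC to MPP 0, and from CMP to GMP and to MEP each call of the main setting stood. Differences of probes that were not well above background on every array are uncertain in size. Calls of probes well above background throughout were lost as well, that of Tgfbr1 from MPP to CMP among them.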
